A study of Mus musculus with 4 samples.

Results

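Genes that p53 switches on to stop division and to mend DNA were followed at the level of single transcripts in primary mouse neural stem cells. The 10 members, Cdkn1a, Ccng1, Btg2, Sesn2, Plk2, Trp53inp1, Zmat3, Gdf15, Polk and Rrm2b, were taken by symbol from the GENCODE M21 annotation, and they held 31 of the 46637 isoforms and 10 of the 14949 genes named in the count table. The cells came from the neocortex of floxed mouse embryos and were treated as bulk cultures for 3 days, so a library can hold cells in which Cre did not act. The library labelled Tut1f/f came from Tut1-floxed cells given empty lipid nanoparticles (LNP) and served as the control. Cells of the other libraries were given LNP with mRNA for the Cre recombinase. They were Tut1-floxed in the library labelled Tut1f/f;Cre, Trp53-floxed in Trp53f/f;Cre, and floxed for both genes in Tut1f/f;Trp53f/f;Cre, called the double-floxed library below. Tut1 encodes the enzyme that adds uridines to the end of U6 snRNA, an RNA of the spliceosome, and Trp53 encodes p53. Each group was 1 library of Nanopore PCR-cDNA reads, so no group had replicates. Cre was given to all groups but the control, and a difference from the control cannot be told apart from an effect of the Cre treatment.

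p53 is a transcription factor that becomes stable when DNA is damaged and binds response elements near its target genes. Some targets hold the cell cycle, others restrain growth signals or feed DNA repair, and still others kill the cell. In the embryonic cortex p53 is best known for removing neural progenitors with damaged DNA. Of the 10 genes, Cdkn1a encodes p21, the inhibitor of cyclin-dependent kinases through which p53 stops the cycle. Ccng1 encodes cyclin G1, Btg2 an antiproliferative protein, Plk2 a polo-like kinase, and Sesn2 sestrin 2, which restrains mTORC1. Trp53inp1 encodes a p53-induced nuclear protein, Zmat3 a zinc finger protein that binds RNA, and Gdf15 a secreted stress cytokine. Polk encodes DNA polymerase kappa, which copies past damaged bases, and Rrm2b encodes p53R2, a subunit of ribonucleotide reductase.

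The response element that p53 binds is made of 2 half-sites, and only the form with no bases between them was searched for. That form was looked for on both strands, from 250 bases before to 50 bases after each gene start in RefSeq GRCm38.p6. A match could hold 1 mismatch outside the core C and G of each half-site. A match was present in 22 of 32851 windows (0.067%), and in 2 of the 7 members that had a window. For both, the 250 bases before the start are shown, because these were the only member windows that held such a match. The capitals mark the matched letters. The match ends 32 bases before the upstream start of Cdkn1a and 176 bases before the start of Ccng1. Cdkn1a-201, the Cdkn1a transcript with the most reads, begins further downstream, at 29093769. The stretch shown for Cdkn1a is chr17:29090729-29090978 on the plus strand, and that for Ccng1 is chr11:40755287-40755536 on the minus strand.
Cdkn1a promoter: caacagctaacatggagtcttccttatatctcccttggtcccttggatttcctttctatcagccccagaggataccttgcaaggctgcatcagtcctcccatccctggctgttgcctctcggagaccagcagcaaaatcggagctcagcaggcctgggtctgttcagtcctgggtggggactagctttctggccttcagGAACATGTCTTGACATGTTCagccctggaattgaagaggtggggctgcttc
Ccng1 promoter: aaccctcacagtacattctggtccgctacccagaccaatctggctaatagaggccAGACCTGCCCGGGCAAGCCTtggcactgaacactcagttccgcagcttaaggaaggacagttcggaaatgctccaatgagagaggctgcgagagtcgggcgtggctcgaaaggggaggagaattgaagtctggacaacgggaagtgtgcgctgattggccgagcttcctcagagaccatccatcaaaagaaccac
A match is a description of letters and not a measured binding site. A single half-site, which any full site contains, was found in 8.36% of all windows and in those of Cdkn1a, Ccng1 and Polk.

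The other sequences that carry a result belong to Polk, whose reads came from 2 main transcripts. Polk-201 (ENSMUST00000022172) is the protein-coding transcript of 4225 bases, and Polk-207 (ENSMUST00000222100) is annotated as a retained-intron transcript of 1089 bases. Both run on the minus strand of chromosome 13 (GRCm38) and share exon 3 at chr13:96516639-96516758. Polk-201 then joins exon 4 at chr13:96508212-96508364 across an intron of 8274 bases. Polk-207 instead reads on into that intron for 557 bases. The last 30 bases of exon 3 are shown in lower case and the bases that follow in each transcript in capitals. The Polk-207 stretch lies at chr13:96516606-96516668.
Polk-201: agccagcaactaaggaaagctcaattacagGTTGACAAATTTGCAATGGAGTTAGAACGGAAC
Polk-207: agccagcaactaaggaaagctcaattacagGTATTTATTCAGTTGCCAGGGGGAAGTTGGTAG
Read in the frame of the annotated start codon, which lies 84 codons before the end of exon 3, the intron gave a first in-frame stop codon 30 bases past the junction. That stop is the last codon printed for Polk-207.

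Sequencing gave 3936827 to 5125888 reads per library, of which 2863392 to 4244467 were assigned to named genes. Entries that name no gene held 17.2% of reads in the control and 27.3% to 30.2% in the libraries given Cre. Levels below are read counts per 1000000 gene reads (CPM) after trimmed-mean (TMM) scaling, and they are compared between libraries and not between genes. Where 4 values follow each other, their library order is control first, Tut1f/f;Cre next, Trp53f/f;Cre after it and the double-floxed library last. The 95% intervals cover counting error only and treat each read as a separate molecule. Reads amplified by PCR and carrying no molecular barcode cannot be counted as separate molecules. The intervals may therefore be too narrow, and the p-values of read tests below too small. Trp53 was at 44.0 CPM in the control, 22.1 in Tut1f/f;Cre, 2.87 in Trp53f/f;Cre and 6.44 in the double-floxed library, low in both libraries labelled as Trp53-deleted. Tut1 was at 9.30, 3.63, 4.02 and 9.15 CPM in library order, from 37, 11, 14 and 27 reads. Tut1 was therefore low in a library whose label names no Tut1 allele and close to the control in the library labelled as double-deleted. These Tut1 values do not follow the labels. The reads were summed over the gene, the floxed exon was not counted apart, and its removal need not lower the sum, so the values check the labels only in part. Whether the names of these 2 libraries were exchanged was not tested. Every comparison that uses either of them rests on the labels as given.

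The labelled cell type was checked against its markers. Of 12 neural stem cell markers, 10 were in the table, and their summed level was 11612 to 13407 CPM. Fabp7, a fatty acid-binding protein of radial glia, made up most of it. Other markers of the list differed, and 5 of the 10 (Nes, Pax6, Hes1, Sox9 and Emx2) were at least 2-fold higher in Tut1f/f;Cre than in the control by the rule given below for comparing 2 libraries, with a median log2 ratio of 0.95 and a share of 12.7% for all genes. In Trp53f/f;Cre against the control, 4 (the same without Pax6) were higher, against 12.5%, and Vim lower, with a median of 0.85. In each comparison of the double-floxed library with another library given Cre, 0 of the 10 differed, against 2.23% to 4.68% of all genes in either direction. The 5 microglia markers were not in the table. The summed level of 6 endothelial and mesenchymal markers was 2.01 to 5.42 CPM, and that of 6 neuronal markers was 67.7 to 84.7 CPM. The 5 astrocyte markers, of which Gfap was not in the table, summed to 55.3, 16.2, 13.5 and 39.7 CPM in library order. That pattern rests on Aldh1l1, at 47.0, 5.28, 3.16 and 24.1 CPM, while S100b was at 2.51, 5.28, 2.87 and 7.12 CPM and Slc1a2 at 5.78, 4.29, 6.60 and 8.13. The 6 oligodendrocyte markers summed to 354, 585, 676 and 475 CPM, mainly from Olig2. The part of these markers in the results below was not tested, and in bulk cells fewer cells of a type and less RNA per cell cannot be told apart.

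Xist, which marks female cells, had 0, 44, 49 and 0 reads, and the Y-linked Kdm5d had 102, 0, 0 and 96. The control and the double-floxed library thus differ from the other two in the sex of their source, and each of the 4 comparisons below crosses that difference. With 4 libraries, the same split is the interaction of both deletions, so a dependence on both deletions and the sex of the source cannot be told apart.

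Cdkn1a was at 187 CPM (95% interval 174 to 201) in the control and at 214 (198 to 231) in Tut1f/f;Cre. It was at 49.1 CPM (42.0 to 57.0) in Trp53f/f;Cre and at 74.9 (65.4 to 85.5) in the double-floxed library. Both libraries labelled as Trp53-deleted were the low ones, with intervals that did not reach those of the other two. Cdkn1a was 3.81-fold lower in Trp53f/f;Cre than in the control (log2 ratio -1.93, interval -2.18 to -1.69) and 2.86-fold lower in the double-floxed library than in Tut1f/f;Cre (-1.52, -1.74 to -1.29). The difference between Tut1f/f;Cre and the control was small (0.20, 0.04 to 0.35).

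Ccng1 was at 74.7 CPM in the control, 20.5 in Tut1f/f;Cre, 8.04 in Trp53f/f;Cre and 15.6 in the double-floxed library. By these gene reads the control alone was high, and every library given Cre was low. The log2 ratio to the control was -1.87 (-2.29 to -1.47) in Tut1f/f;Cre, or -0.95 and not counted with the added reads described below, and -3.22 (-3.83 to -2.66) in Trp53f/f;Cre. With gene reads alone, the double-floxed library and Tut1f/f;Cre were not separated for Ccng1 (-0.39, -0.98 to 0.18). With the added reads Ccng1 was lower in the double-floxed library by less than 2-fold (-0.93, -1.38 to -0.49).

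Btg2, the antiproliferative gene, was at 42.2, 68.3, 37.9 and 37.6 CPM in library order. Only the Tut1f/f;Cre library stood above the rest, by 0.69 log2 units over the control (0.39 to 1.0). Plk2 was at 95.3, 91.5, 69.5 and 79.3 CPM in the same order, a narrow range with the highest level in the control. Its log2 ratio was -0.46 (-0.70 to -0.22) between Trp53f/f;Cre and the control.

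Sesn2, the mTORC1 regulator, was at 56.6, 51.5, 21.5 and 21.4 CPM in that order. Both libraries labelled as Trp53-deleted were low and nearly equal. The log2 ratio was -1.39 (-1.79 to -1.01) for Trp53f/f;Cre against the control and -1.27 (-1.72 to -0.84) for the double-floxed library against Tut1f/f;Cre. With the added reads described below, the first was -0.85 (-1.17 to -0.53) and not counted as different. Trp53inp1 followed the same order at 21.6, 13.5, 3.16 and 5.08 CPM, from 86, 41, 11 and 15 reads. It was 6.85-fold lower in Trp53f/f;Cre than in the control (-2.78, -3.83 to -1.87), but at -0.29 (-0.62 to 0.05), with no difference counted, once reads inside the gene that name no gene were added, as described below.

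Gdf15, the secreted cytokine, was at 17.9, 16.2, 5.74 and 6.78 CPM, from 71, 49, 20 and 20 reads. The control and Tut1f/f;Cre lay together above the other two. Gdf15 was 3.11-fold lower in Trp53f/f;Cre than in the control (-1.64, -2.43 to -0.90) and 2.39-fold lower in the double-floxed library than in Tut1f/f;Cre (-1.26, -2.08 to -0.48). Zmat3 had 16, 3, 3 and 4 reads. It was below the minimum for the gene tests, and its log2 ratio to the control had a wide interval in Tut1f/f;Cre (-4.44 to -0.22) and in Trp53f/f;Cre (-4.65 to -0.42).

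Of the 2 genes for DNA copying and nucleotide supply, Polk was at 12.6, 49.9, 18.7 and 23.7 CPM in library order. Tut1f/f;Cre was the high library, with an interval of 42.2 to 58.5 CPM that no other library reached. Polk was 3.97-fold higher there than in the control (1.99, 1.52 to 2.48), and 2.10-fold lower in the double-floxed library than in Tut1f/f;Cre (-1.07, -1.50 to -0.65). Rrm2b was at 7.29, 11.9, 9.18 and 7.46 CPM, and all 4 intervals overlapped. Sesn2, Polk, Rrm2b and Cdkn1a each overlap another annotated gene, and since strand use in counting was not given, their counts may include reads of the neighbour.

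**Figure D1:**
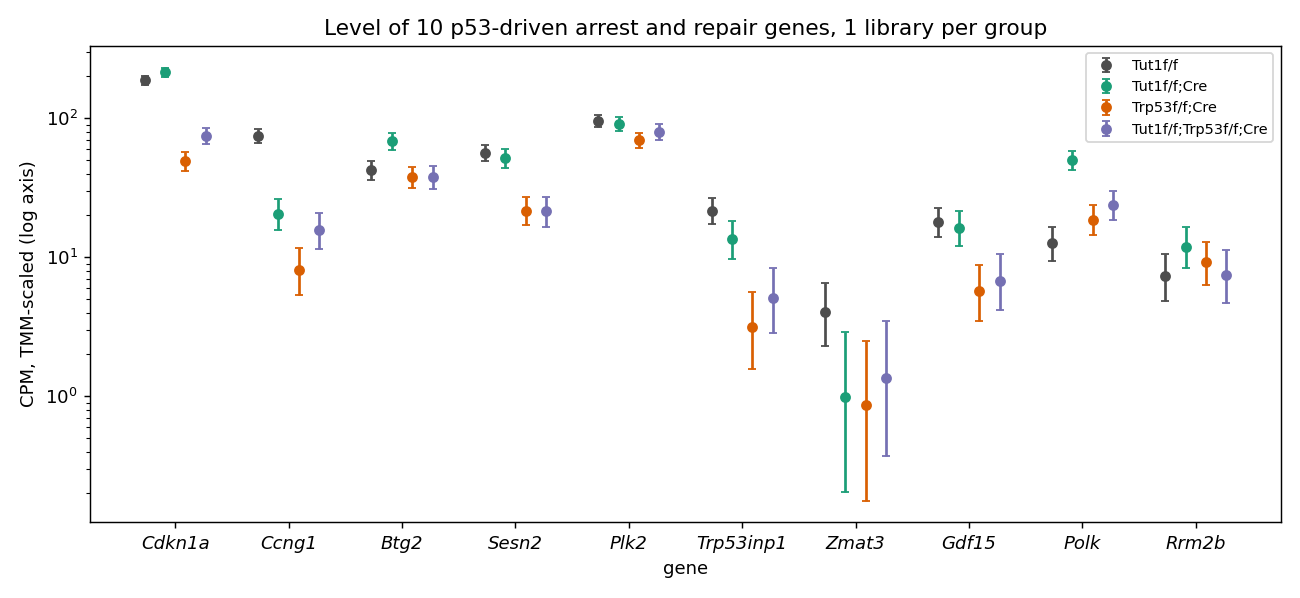
Level of each member (CPM after TMM scaling, log axis) in the 4 libraries; points are single libraries and bars are 95% counting intervals. The libraries labelled as Trp53-deleted lie below the other two for Cdkn1a, Sesn2, Trp53inp1 and Gdf15, Ccng1 is high in the control alone, and Polk is high in Tut1f/f;Cre.

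The 4 comparisons of 2 libraries followed from the design, and a gene was counted as different at 2-fold or more with an interval that left out no change. With 1 library per group these are descriptions of libraries and not tests of the conditions. There were 9 members that passed the filter on low counts, out of 9882 genes. The comparison of Tut1f/f;Cre with the control asked what followed loss of Tut1 while p53 was present. Polk was the 1 member counted as higher, against 12.7% of all genes, and Ccng1 the 1 counted as lower, against 13.3%. The median log2 ratio of the members was -0.06 and that of all genes -0.01. With reads naming no gene added, as described below, Ccng1 was not counted as lower. Scaling to library totals moved the median of all genes to 0.11 here and to 0.09 in Trp53f/f;Cre against the control, and the counts of members were the same.

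The comparison of Trp53f/f;Cre with the control asked what followed loss of p53 alone. Counted as lower were 5 members (Cdkn1a, Ccng1, Sesn2, Trp53inp1 and Gdf15), against 15.3% of all genes, and 0 as higher, against 12.5%. The median of the members was -1.37, and that of all genes was -0.02. With reads naming no gene added, 3 members were counted as lower, against 9.99% of all genes. The comparison of the double-floxed library with Tut1f/f;Cre asked the same within cells given Cre and floxed for Tut1. Again 5 members were counted as lower (Cdkn1a, Sesn2, Trp53inp1, Gdf15 and Polk), here against 2.27% of all genes, and 0 as higher, against 2.23%. All 9 members had a negative log2 ratio, with a median of -1.06 against 0.03 for all genes. With those reads added, 4 were counted as lower, against 1.55% of all genes. This comparison shares no library with that of Trp53f/f;Cre and the control.

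Between the double-floxed library and Trp53f/f;Cre, which asked what followed loss of Tut1 without p53, 0 members were counted as different, against 4.68% of all genes higher and 2.56% lower. Cdkn1a (0.61, 0.32 to 0.91) and Ccng1 (0.96, 0.25 to 1.69) were higher in the double-floxed library by less than 2-fold with intervals above 0. The log2 ratio of Tut1f/f;Cre to the control minus that of the double-floxed library to Trp53f/f;Cre was -2.82 (counting SE 0.40) for Ccng1 and 1.64 (SE 0.34) for Polk. It was -1.36 (SE 0.63) for Trp53inp1 and 1.01 (SE 0.54) for Rrm2b, and under 1 log2 unit in size for the other 5 tested members. With reads naming no gene added, as described below, the ratios behind it were 0.33 and -0.27 for Trp53inp1, a difference of opposite sign. They were -0.95 and 0.79 for Ccng1, 1.94 and 0.37 for Polk, and 0.91 and -0.03 for Rrm2b. With no degree of freedom left, these differences could not be tested.

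**Figure D2:**
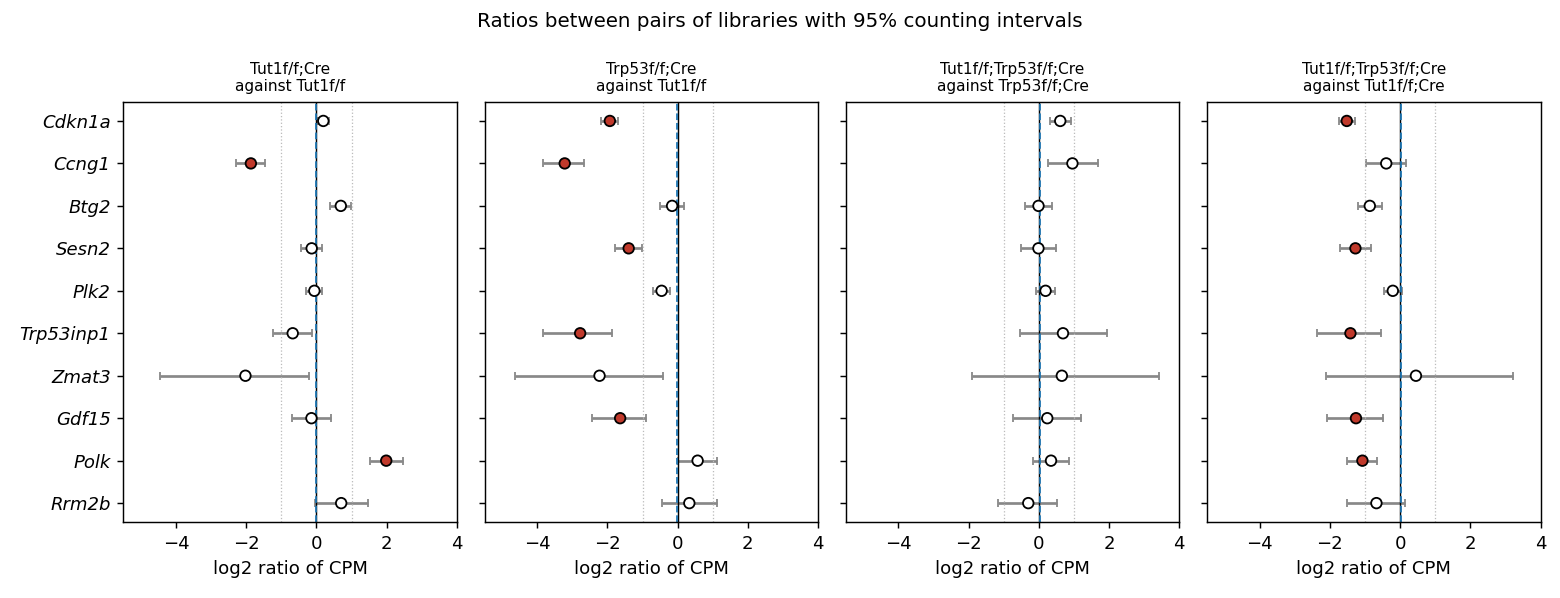
Log2 ratio of CPM for each member in the 4 comparisons of 2 libraries, with 95% counting intervals; filled points are members counted as different, the blue dashed line is the median of all genes and the dotted lines are 2-fold. On the plot 5 members are filled to the left in each comparison of a library labelled as Trp53-deleted with its partner of intact Trp53, and 0 between the libraries labelled as Trp53-deleted.

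All 4 libraries were then fitted together with edgeR, with Trp53 status and Tut1 status as additive terms. The fit assumes no interaction and leaves 1 residual degree of freedom, which is the split by sex of the source described above, and its p-values measure only the spread between these libraries. With Trp53 status, 0 of 9 members passed an FDR of 0.05 with a 2-fold change, against 0.0101% of all genes, which is the single pseudogene Rpl3-ps1. DESeq2 also called 0 members. At an unadjusted p under 0.05, 5 members were lower with Trp53 deletion, against 1.06% of all genes, and 4 members in DESeq2.

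Cdkn1a was at -1.72 log2 units with Trp53 status (SE 0.49, unadjusted p = 0.000386, edgeR FDR = 0.381). Trp53inp1 was at -2.08 (SE 0.71, unadjusted p = 0.00334) and Ccng1 at -1.80 (SE 0.62, unadjusted p = 0.00363). Sesn2 was at -1.33 (SE 0.54, unadjusted p = 0.0142) and Gdf15 at -1.44 (SE 0.67, unadjusted p = 0.031), and the edgeR FDR was 0.9999 for each of these 4. The estimates were -0.51 for Btg2, -0.33 for Plk2, -0.27 for Polk and -0.17 for Rrm2b, each smaller than its SE. With 1 library left out, Trp53 status was the only term and 1 group held a single library, so only estimates are given. Without the control, Ccng1 was at -0.81, Btg2 at -0.85 and Polk at -1.24. Without Tut1f/f;Cre, Polk was at 0.75. Which members passed an unadjusted p of 0.05 changed with the library left out. All 9 estimates of the additive fit were negative, compared with 51.1% of all genes. The fit and the comparisons of 2 libraries use the same libraries, so their directions are not separate evidence.

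With Tut1 status, 0 of 9 members were called by edgeR, against 0% of all genes, and 0 by DESeq2. At an unadjusted p under 0.05, 1 member was higher, against 1.05% of all genes, 0 were lower, against 0.84%, and 0 passed in DESeq2. That member was Polk, at 1.17 log2 units (SE 0.59, unadjusted p = 0.0461, edgeR FDR = 0.9999). The estimates of the other 8 members lay between -0.54 for Ccng1 and 0.40 for Cdkn1a. With 1 library left out, Tut1 status was the only term, so the library and the model changed at once. Those fits also left a single library in 1 group, so only estimates are given. Leaving out Trp53f/f;Cre moved Ccng1 to -2.06, Trp53inp1 to -1.22 and Polk to 1.54. Leaving out the control moved Cdkn1a to 1.53, Ccng1 to 1.13 and Trp53inp1 to 1.53. That fit set a library of intact Trp53 and a Trp53-deleted one against Trp53f/f;Cre, so Trp53 differences enter its estimates. Leaving out Tut1f/f;Cre moved Cdkn1a to -0.66 and Polk to 0.60.

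**Figure D3:**
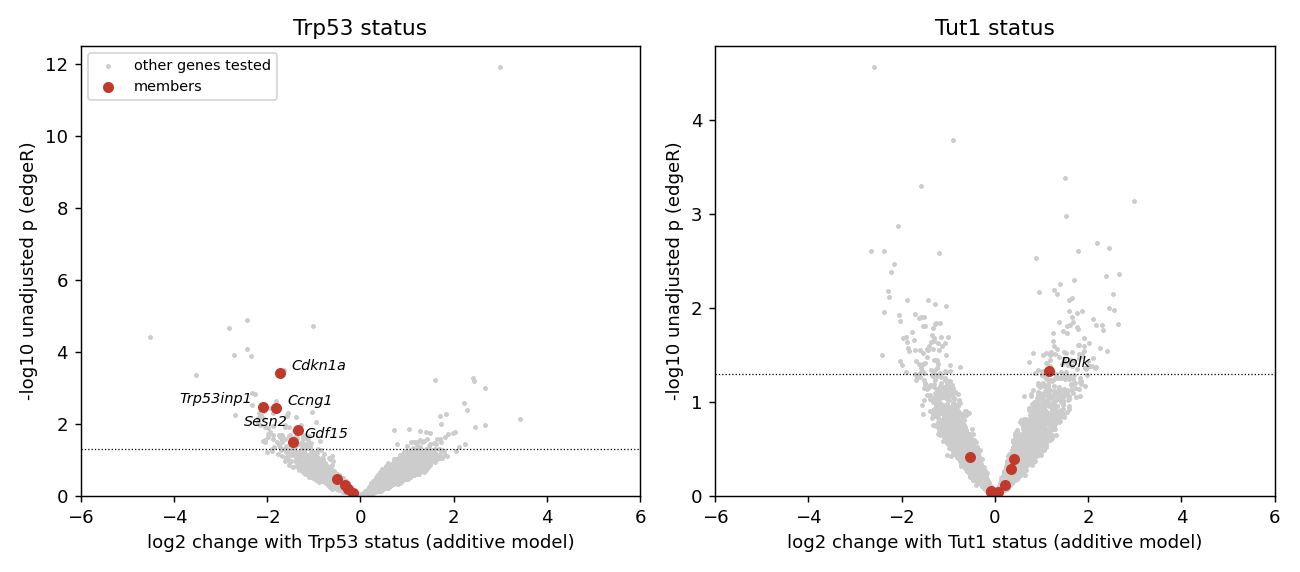
Log2 change with Trp53 status (left) and Tut1 status (right) against -log10 of the unadjusted edgeR p for 9882 genes; red points are the 9 tested members, those past the dotted line (p of 0.05) are named, and the vertical scales differ. In all, 5 members lie past the line on the left of the Trp53 panel, and Polk alone in the Tut1 panel.

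Most members were represented by 1 transcript. Btg2-201, Sesn2-201, Plk2-201 and Trp53inp1-201 each held at least 93.1% of their gene's reads in every library, and Rrm2b-201 at least 84.4%. All Gdf15 reads were assigned to a variant of Gdf15-201. Ccng1-201 held 57.1% to 74.7% of Ccng1 reads, with the rest mainly in isoforms named after single reads. Zmat3 reads were split between a variant of Zmat3-201 and an isoform named after a read, with too few reads to compare.

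The main transcript of Polk differed between the control and the libraries given Cre. Polk-207, with the intron stretch shown above, had 11 reads in the control, 102 in Tut1f/f;Cre, 47 in Trp53f/f;Cre and 42 in the double-floxed library. These were 22.0%, 67.5%, 72.3% and 60% of Polk reads, low in the control and high in every library given Cre. Polk-201, the coding transcript, had 35, 42, 15 and 21 reads, or 70%, 27.8%, 23.1% and 30%. A two-sided Fisher's exact test of the reads, which compares libraries and not conditions, gave an FDR of 1.13e-06 for Polk-207 and 8.41e-06 for Polk-201 between Tut1f/f;Cre and the control. The FDR was 3.23e-06 and 1.76e-05 between Trp53f/f;Cre and the control.

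These were the 2 member isoforms called among 15 tested in each of these comparisons, where 8.66% and 9.12% of all isoforms were called. Between the double-floxed library and the other libraries given Cre, 0 of 14 member isoforms were called in either comparison, against 1.24% for the double-floxed library against Trp53f/f;Cre and 0.15% against Tut1f/f;Cre. In the additive fit (edgeR diffSpliceDGE), 0 of 13 member isoforms were called with either status, against 0% of all isoforms, and 0 reached an unadjusted p under 0.05, against 0.704% with Trp53 status and 1.02% with Tut1 status. As levels, Polk-207 was 12.2-fold higher in Tut1f/f;Cre than in the control (log2 ratio 3.61, 2.71 to 4.65) and 4.88-fold higher in Trp53f/f;Cre (2.29, 1.32 to 3.38). The level of Polk-201 had a log2 ratio of 0.66 (-0.03 to 1.35) in Tut1f/f;Cre and of -1.03 (-2.01 to -0.12) in Trp53f/f;Cre. The higher level of Polk in Tut1f/f;Cre was therefore for the most part reads of Polk-207.

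Cdkn1a reads were assigned to transcripts with several annotated starts, and where the reads themselves began was not measured. Transcripts Cdkn1a-202 and Cdkn1a-204 begin at the upstream start, next to the promoter window shown above, and Cdkn1a-201 begins at 29093769 on chromosome 17. The upstream pair had 252, 212, 44 and 58 reads and Cdkn1a-201 had 372, 325, 97 and 122. Both were lower in the libraries labelled as Trp53-deleted. The log2 ratio of the upstream pair was -2.33 (-2.82 to -1.86) for Trp53f/f;Cre against the control and -1.83 (-2.28 to -1.41) for the double-floxed library against Tut1f/f;Cre. For Cdkn1a-201 it was -1.75 (-2.09 to -1.42) and -1.38 (-1.69 to -1.07). For Cdkn1a-203, which begins at 29097900 and had 65, 70, 16 and 24 reads, it was -1.83 and -1.51. The upstream pair made up 36.6% (95% Wilson interval 33.1 to 40.2) of reads of annotated Cdkn1a transcripts in the control, 34.9% (31.2 to 38.8) in Tut1f/f;Cre, 28.0% (21.6 to 35.5) in Trp53f/f;Cre and 28.4% (22.7 to 35.0) in the double-floxed library. The shares were lower in both libraries labelled as Trp53-deleted, with intervals that overlap those of their partners.

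**Figure D4:**
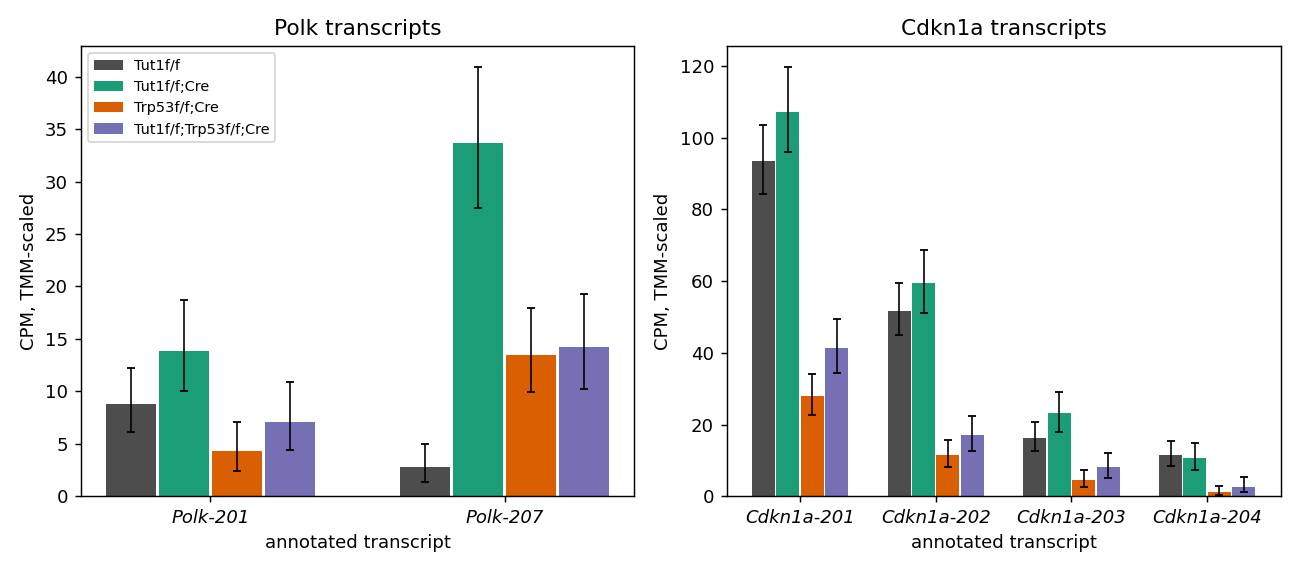
Level (CPM after TMM scaling) of 2 Polk and 4 Cdkn1a transcripts in the 4 libraries, with 95% counting intervals. Polk-207 is lowest in the control and highest in Tut1f/f;Cre, and all 4 Cdkn1a transcripts are lower in the libraries labelled as Trp53-deleted.

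Reads in entries that name no gene also fell inside the bodies of the members. Such entries give a position rounded to 1000 bases and no strand, so they can belong to introns, unassigned ends or other genes. Trp53inp1 had 86, 138, 122 and 75 of them in library order, which was 50%, 77.1%, 91.7% and 83.3% of all its reads. The entry near chr4:11158000, in intron 1, had 32, 44, 86 and 48 reads and was 2.85-fold higher scaled to all reads in Trp53f/f;Cre than in the control (1.88 to 4.42). That entry was highest in the library in which the gene's own count was lowest.

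Ccng1 had 14, 72, 18 and 19 such reads, or 4.50%, 53.7%, 39.1% and 29.2% of its total. The entry near chr11:40752000 had 7, 50, 12 and 15 reads, high in Tut1f/f;Cre alone. Sesn2 had 18, 79, 52 and 39 such reads, or 7.41%, 33.6%, 40.9% and 38.2%, low in the control. Among members with at least 10 such reads in 1 of the 2 libraries, 6 of 8 had more of them in Tut1f/f;Cre than in the control by 2-fold and interval, against 62.9% of all genes. In Trp53f/f;Cre against the control 2 of 7 had more, against 58.6%, and Cdkn1a alone had fewer, against 0.858%. In the double-floxed library against Tut1f/f;Cre 4 of 8 had fewer, against 1.93%. For Cdkn1a and Btg2 the share reached 7.57% and 4.31% at most.

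Adding these reads, scaled to all reads, changed several results and was chosen after seeing the data. Between Trp53f/f;Cre and the control, Cdkn1a (-1.99), Ccng1 (-2.67) and Gdf15 (-1.62) were still counted as lower, against 9.99% of all genes. Sesn2 (-0.85, -1.17 to -0.53) and Trp53inp1 (-0.29, -0.62 to 0.05) were not. Between the double-floxed library and Tut1f/f;Cre, Cdkn1a (-1.43), Sesn2 (-1.09), Gdf15 (-1.29) and Polk (-1.07) were counted as lower, against 1.55% of all genes, and Trp53inp1 (-0.88) was not.

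Between Tut1f/f;Cre and the control, Polk was still counted as higher, against 18.2% of all genes, and Ccng1, at -0.95 (-1.25 to -0.65), was not counted as lower, against 9.16%. Zmat3, outside the tested genes, turned from -2.02 to 0.95. Over all genes, 1792 were then higher and 903 lower in that comparison, where 1255 and 1314 had been with gene reads alone. In Trp53f/f;Cre against the control 1670 and 985 replaced 1233 and 1514. The scaling changed along with the reads. Gene reads scaled to library totals gave 1511 higher and 1092 lower, and 1466 and 1283 in Trp53f/f;Cre against the control.

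**Figure D5:**
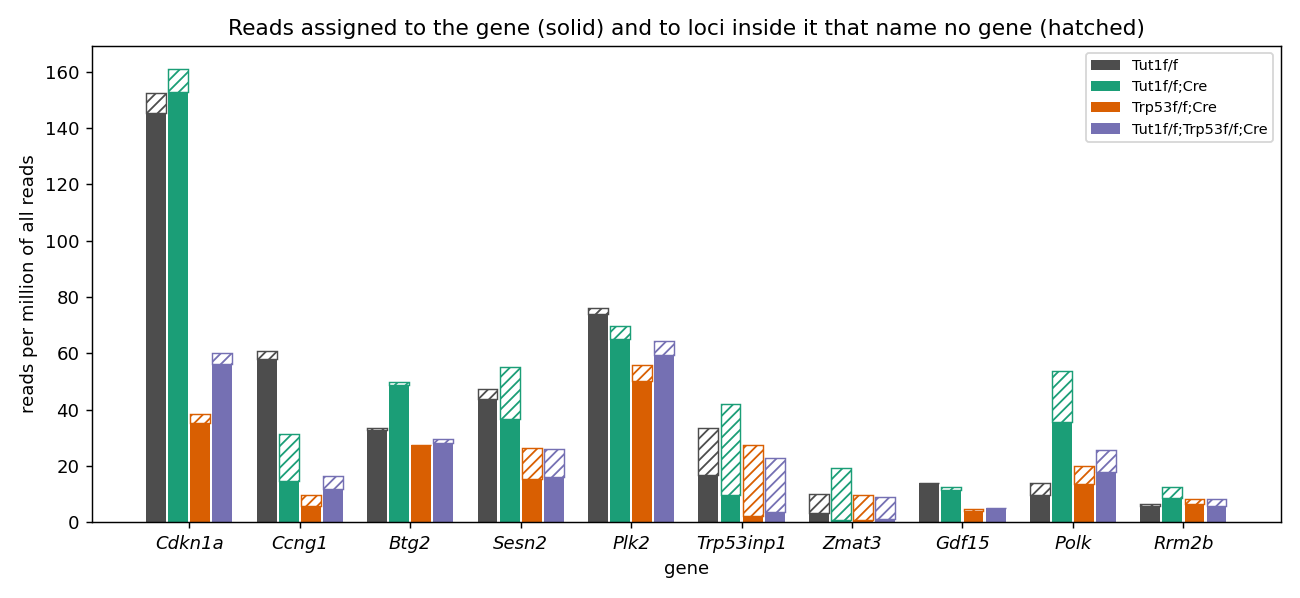
Reads (scaled to 1000000 of all reads) assigned to each member (solid) and to entries inside its body that name no gene (hatched) in the 4 libraries. The hatched part exceeds the solid part for Trp53inp1 in the libraries given Cre, for Zmat3 in every library and for Ccng1 in Tut1f/f;Cre.

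Other genes of the pathway were taken from lists. Of 22 other p53 targets, 19 were tested, and 14 were lower, against 15.3% of all genes, and 1 higher, against 12.5%, in Trp53f/f;Cre than in the control, with a median of -1.59. Among them were Phlda3, an inhibitor of AKT signalling, with 129, 14, 9 and 8 reads in library order. The death genes Pmaip1, which encodes NOXA, and Eda2r, a death receptor, had 40, 18, 1 and 1 reads and 96, 41, 7 and 17 reads. Mdm2, the ubiquitin ligase that removes p53, had 60, 29, 12 and 12 reads. These genes were highest in the control and lowest in the libraries labelled as Trp53-deleted.

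In Tut1f/f;Cre against the control, 3 of the 19 were lower, near the 13.3% of all genes, and 0 higher, namely Sesn1, a sestrin (59 and 5 reads in the control and Tut1f/f;Cre), Phlda3 and Fdxr, ferredoxin reductase (54 and 10 reads). In the double-floxed library against Tut1f/f;Cre, 7 were lower, against 2.27% of all genes, and 1 higher. Fas, a death receptor, had 32, 33, 7 and 6 reads, and Bbc3, which encodes PUMA, had 123, 124, 34 and 31. Apaf1, the scaffold of the apoptosome, had 140, 92, 75 and 40. Between the libraries labelled as Trp53-deleted, 1 was higher and 1 lower, near the shares of all genes (4.68% and 2.56%). With Trp53 status, 7 of the 19 were lower at an unadjusted p under 0.05, against 1.06% of all genes, and 0 were called by edgeR at the FDR threshold.

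Of a list of cyclins, their kinases and inhibitors, retinoblastoma and E2F genes, Pcna and ribonucleotide reductase subunits, 17 were tested. In Tut1f/f;Cre against the control 2 were higher and 6 lower, against 12.7% and 13.3% of all genes. In Trp53f/f;Cre against the control 2 were higher and 5 lower, against 12.5% and 15.3%. The 2 higher are near the share of all genes in both comparisons. Ccnd3, which encodes cyclin D3, had 108, 10, 14 and 13 reads, and Cdk4, its kinase, had 2927, 987, 1011 and 1211. Rrm2, the ribonucleotide reductase subunit of dividing cells, had 1552, 504, 494 and 800. All 3 were highest in the control. Ccnd3 and Cdk4 were low in every library given Cre, while Rrm2 was at 390, 166, 142 and 271 CPM in library order. The genes counted as higher in both comparisons were E2f1, a transcription factor of the start of DNA synthesis, with 33, 51, 79 and 29 reads, and Ccne2, which encodes cyclin E2, with 123, 198, 229 and 230. Between the double-floxed library and Tut1f/f;Cre, 0 of the 17 differed, against 2.23% of all genes higher and 2.27% lower, shares at which none of 17 need differ. Against Trp53f/f;Cre, 1 of the 17 was lower there (E2f1, log2 ratio -1.21), near the share of 2.56%.

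Of 17 cell division genes, 2 were higher and 3 lower in Tut1f/f;Cre than in the control, with a median of -0.41, and the counts were 2 and 3 for Trp53f/f;Cre. These counts are near the shares of all genes just given, so they are no result about the list. Mki67, the gene of the Ki-67 antigen, had 233, 581, 818 and 500 reads, and Cdc25c, a phosphatase that opens mitosis, had 191, 31, 34 and 54. The kinase gene Aurkb had 382, 77, 95 and 111. Mki67 was thus lowest, and the other two highest, in the control. Between the double-floxed library and each of the other libraries given Cre 0 of the 17 differed, against 2.23% to 4.68% of all genes in either direction.

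Among 12 tested translesion and repair partners of Polk, 4 were higher, against 12.7% of all genes, and 3 lower, against 13.3%, in Tut1f/f;Cre than in the control. Polh, which encodes polymerase eta, had 53, 8, 9 and 29 reads, and Chek2, a checkpoint kinase gene, had 52, 10, 14 and 28. Brca2, a gene of repair by recombination, had 50, 122, 165 and 104, and the kinase gene Atr had 11, 31, 28 and 19. Against the control, Polh and Chek2 were lower and Brca2 and Atr higher in Tut1f/f;Cre and in Trp53f/f;Cre. In the double-floxed library Polh (9.83 CPM) and Chek2 (9.49 CPM) were nearer the control (13.3 and 13.1 CPM), and Brca2 stayed high (35.2 against 12.6 CPM). In Trp53f/f;Cre against the control, 2 were higher and 2 lower, near the shares of all genes (12.5% and 15.3%), and 2 were higher and 0 lower in each comparison of the double-floxed library, against 4.68% and 2.23% of all genes higher.

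The 5 genes closest to the median profile of the members, by Euclidean distance of centred log2 CPM over the 4 libraries among 4691 genes of at least 20 CPM on average, were Ddit4l (distance 0.265), Snhg15 (0.303), Abhd4 (0.325), Rprm (0.356) and Bax (0.381). Rprm encodes reprimo, an arrest protein of G2, and had 489, 253, 157 and 137 reads. Bax, the pore-forming death effector, had 1548, 976, 637 and 621, and Ddit4l had 228, 197, 82 and 89. Scaled, Ddit4l was at 57.3, 65.0, 23.5 and 30.2 CPM, highest in Tut1f/f;Cre, and the other 4 were highest in the control, Abhd4 closely so at 65.9 CPM beside 63.4 in Tut1f/f;Cre. All 5 were lower in CPM in both libraries labelled as Trp53-deleted than in the other two, which follows from how they were chosen.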

How the data were processed

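RNA of 4 cultures was sequenced as Nanopore PCR-cDNA. The deposited table holds read counts per isoform that the authors made without normalization. The genome build mm10 is named in the submitters' processing notes, and the study's methods name minimap2 and FLAIR for long reads of embryonic pallium. Whether these tools made this table, and its strand use and filters, is not given in the sources used here. Entries naming no gene were left out of library sizes and tests, and their share is given in the report. Isoform counts were summed per Ensembl gene named in GENCODE M21. All 4 count columns were mapped to samples.

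Gene counts were scaled with TMM and fitted with edgeR 4.0.16 in R 4.3.3 (quasi-likelihood, default expression filter, both statuses additive, calls at a Benjamini-Hochberg FDR of 0.05 and 2-fold), with DESeq2 1.42.0 as an alternative. Ratios of 2 libraries carry exact conditional binomial intervals. Usage was compared with Fisher's exact test (scipy 1.17.1) over isoforms with at least 10 reads in genes with at least 20 reads per library, called at 10 percentage points. The edgeR step was tested on simulated data. Alternatives were other scaling, filters, folds, models, annotated transcripts only and leaving out each library.

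All members were named. List genes were named where counted as different between 2 libraries, at most 4 per list and comparison by size of the ratio with at least 30 reads. The members and lists were chosen with earlier results of these data known. Promoter windows came from RefSeq GRCm38.p6 tables, and wider motif windows were not analysed here.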

Additional observations from a re-analysis of the deposited data

Results flagged for a closer look

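Reads in entries that name no gene, which entered no gene count, were higher inside several members than in the control by more than counting error. In Tut1f/f;Cre against the control, scaled to all reads, they were 6.20-fold higher for Ccng1, 5.29-fold for Sesn2, 4.27-fold for Polk, 4.10-fold for Rrm2b, 2.72-fold for Zmat3 and 2.29-fold for Plk2. In Trp53f/f;Cre against the control they were 3.07-fold higher for Sesn2 and 2.87-fold for Plk2, where the sum was 2.24-fold higher for all tested genes and 1.46-fold higher for all members. The number of members higher, 6 of 8 and 2 of 7, stands against 62.9% and 58.6% of all genes, so the increases are given as values and no result about the members is read from them. Over all members the sum was 231 reads in the control, 527 in Tut1f/f;Cre, 317 in Trp53f/f;Cre and 244 in the double-floxed library. The sum was 2.75-fold higher in Tut1f/f;Cre than in the control (2.35 to 3.22), where it was 2.39-fold for all tested genes. In the double-floxed library the sum was 0.50 of that in Tut1f/f;Cre (0.428 to 0.583), where it was 0.905 for all tested genes.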

How the results depend on the processing

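No paired analysis was possible because each group held 1 library. Of 87 alternative counts, 64 stayed within 1.5 times the reported one. The number of members called with Trp53 status (0) changed only when 1 library was left out. Those fits held 1 status as the only term, so the library and the model changed at once. They also left a single library in 1 group, which was assumed to vary like the others, so their counts are not given. Members at an unadjusted p under 0.05 (5) were 3 with a mean of at least 50 reads, where 6 members were tested. That number also changed with the library left out. Members called with Tut1 status (0) likewise changed only when 1 library was left out. Those fits held Tut1 status as the only term and left a single library in 1 group, so their counts are not given either. Members at an unadjusted p under 0.05 with Tut1 status (1) also changed in such fits. They were 0 with DESeq2, RLE size factors, a mean of at least 50 reads or annotated transcripts only. The cause was not tested.

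Members differing between Tut1f/f;Cre and the control (2) were 4 at 1.5-fold (of all 9882 genes, 1999 higher and 2174 lower), 5 with no fold requirement (2668 and 2796) and 1 with reads naming no gene added. The 5 between Trp53f/f;Cre and the control were 3 with a mean of at least 50 reads (fewer genes tested) or with those reads added. The 0 between the libraries labelled as Trp53-deleted were 2 at 1.5-fold (1095 genes higher and 716 lower) or with no fold requirement (1913 and 1348), and 1 with annotated transcripts only. The 5 between the double-floxed library and Tut1f/f;Cre were 3 with a mean of at least 50 reads.

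None of 52 alternative values of the 5 members lower with Trp53 status changed sign. With 1 library left out and Trp53 status as the only term, its estimate ranged from -1.24 to 0.75 for Polk. For Rrm2b it ranged from -0.51 to 0.19, and both were positive without Tut1f/f;Cre. The Tut1 estimates with 1 library left out likewise come from fits with Tut1 status as the only term. The Tut1 estimate ranged from -0.66 to 1.53 for Cdkn1a, -0.17 to 0.27 for Plk2 and -0.80 to 0.97 for Gdf15, negative without Tut1f/f;Cre or Trp53f/f;Cre. It ranged from -0.091 to 0.77 for Btg2 and -0.14 to 0.53 for Rrm2b, negative without Tut1f/f;Cre. It ranged from -2.06 to 1.13 for Ccng1, -0.87 to 0.73 for Sesn2 and -1.29 to 1.53 for Trp53inp1, positive without Tut1f/f and, for Sesn2 and Trp53inp1, without the double-floxed library. Gdf15 was at -0.045 with Tut1 status alone, and the ratio of Zmat3 in Tut1f/f;Cre was 0.95 with reads naming no gene added. Motif windows of 5000 and 2000 bases were not run. Zmat3, Rrm2b and Trp53inp1 had the fewest reads over all libraries, and Zmat3 had the widest interval in every comparison.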
